A study of Mus musculus with 25 samples.

Results

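The p53 target genes described here are a list of 33 gene symbols, taken as listed. Each gene was read from 1 probe set, the one with the highest mean level over the 25 arrays among the probe sets that carry a single gene symbol. Of the 33 symbols, 29 were found on the array among 18193 genes, and 4 were not analysed here. A filter on dim signal, set on the mean over all 25 arrays, left 28 of the 29 members and 12937 genes in all for testing. The member below it was Tnfrsf10b, a death receptor, at a mean level of 5.72. Levels are log2(signal + 16) throughout, and differences are on that scale, which understates the change of dim genes.

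The lungs came from 25 female wildtype C57BL/6J mice, 14 to 17 weeks old and weighing 20 to 25 g, 1 mouse per array. The control group received phosphate-buffered saline (PBS, n = 4). The fTyS, SEW and FTY groups (n = 3 each) received 0.1 mg/kg of a compound by intraperitoneal injection 2 times a week and no radiation. A further 3 mice received 25 Gy to the chest and no compound (the radiation group). The remaining 9 received the same 25 Gy together with fTyS, with SEW or with FTY (n = 3 each), and are written radiation+fTyS, radiation+SEW and radiation+FTY. FTY is FTY720 (fingolimod), which becomes active at receptors for sphingosine 1-phosphate once it is phosphorylated in the body. fTyS is (S)-FTY-phosphonate, in which a phosphonate stands where phosphorylated FTY720 has its phosphate. The third compound, SEW-2871 (SEW), activates the receptor S1P1 and lacks the sphingosine-like structure of the others. The time from irradiation to collection is not given in the sources used here.

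The transcription factor p53 accumulates when DNA is broken, binds response elements in its target genes and raises their transcription. Its targets arrest the cell cycle, repair DNA, trigger apoptosis and, through Mdm2, return p53 itself to a low level. The arrays measure whole-lung RNA, so more RNA per cell and a change in the cell types present cannot be told apart in any result that follows. Markers of alveolar type 2, alveolar type 1 and club cells were high in every group. The summed signal of 6 type 2 markers ran from 38108 to 47360 over the 25 arrays. Array medians ran from 118 to 130 signal units. The number of mice limits the precision: over the genes tested, 95% confidence intervals had a median half-width of 0.208 for radiation against control and 0.128 for the radiation effect pooled over the compounds.

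One array stood apart from its group in these genes before any comparison was made. The array labelled control replicate 4, from a mouse described as given PBS and no radiation, was the highest of the 13 unirradiated arrays in 18 of the 28 tested members, against 8.29% of all genes tested. Each of the other 12 unirradiated arrays was the highest in 0 to 3 members. The mean level over the 29 members was 9.68 on control replicate 4, 9.18 to 9.30 on the other 12 unirradiated arrays and 9.58 to 9.69 on the 12 irradiated arrays. Its level in 22 of the 29 members lay above the mean of the other 3 controls, a count for which no share over all genes was taken. The heat map of all members by array shows this column with the colours of the irradiated arrays. The labels alone assign this mouse to the control group, no other source was used to reassign it, and every comparison that uses the control group is given with and without it.

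**Figure D1:**
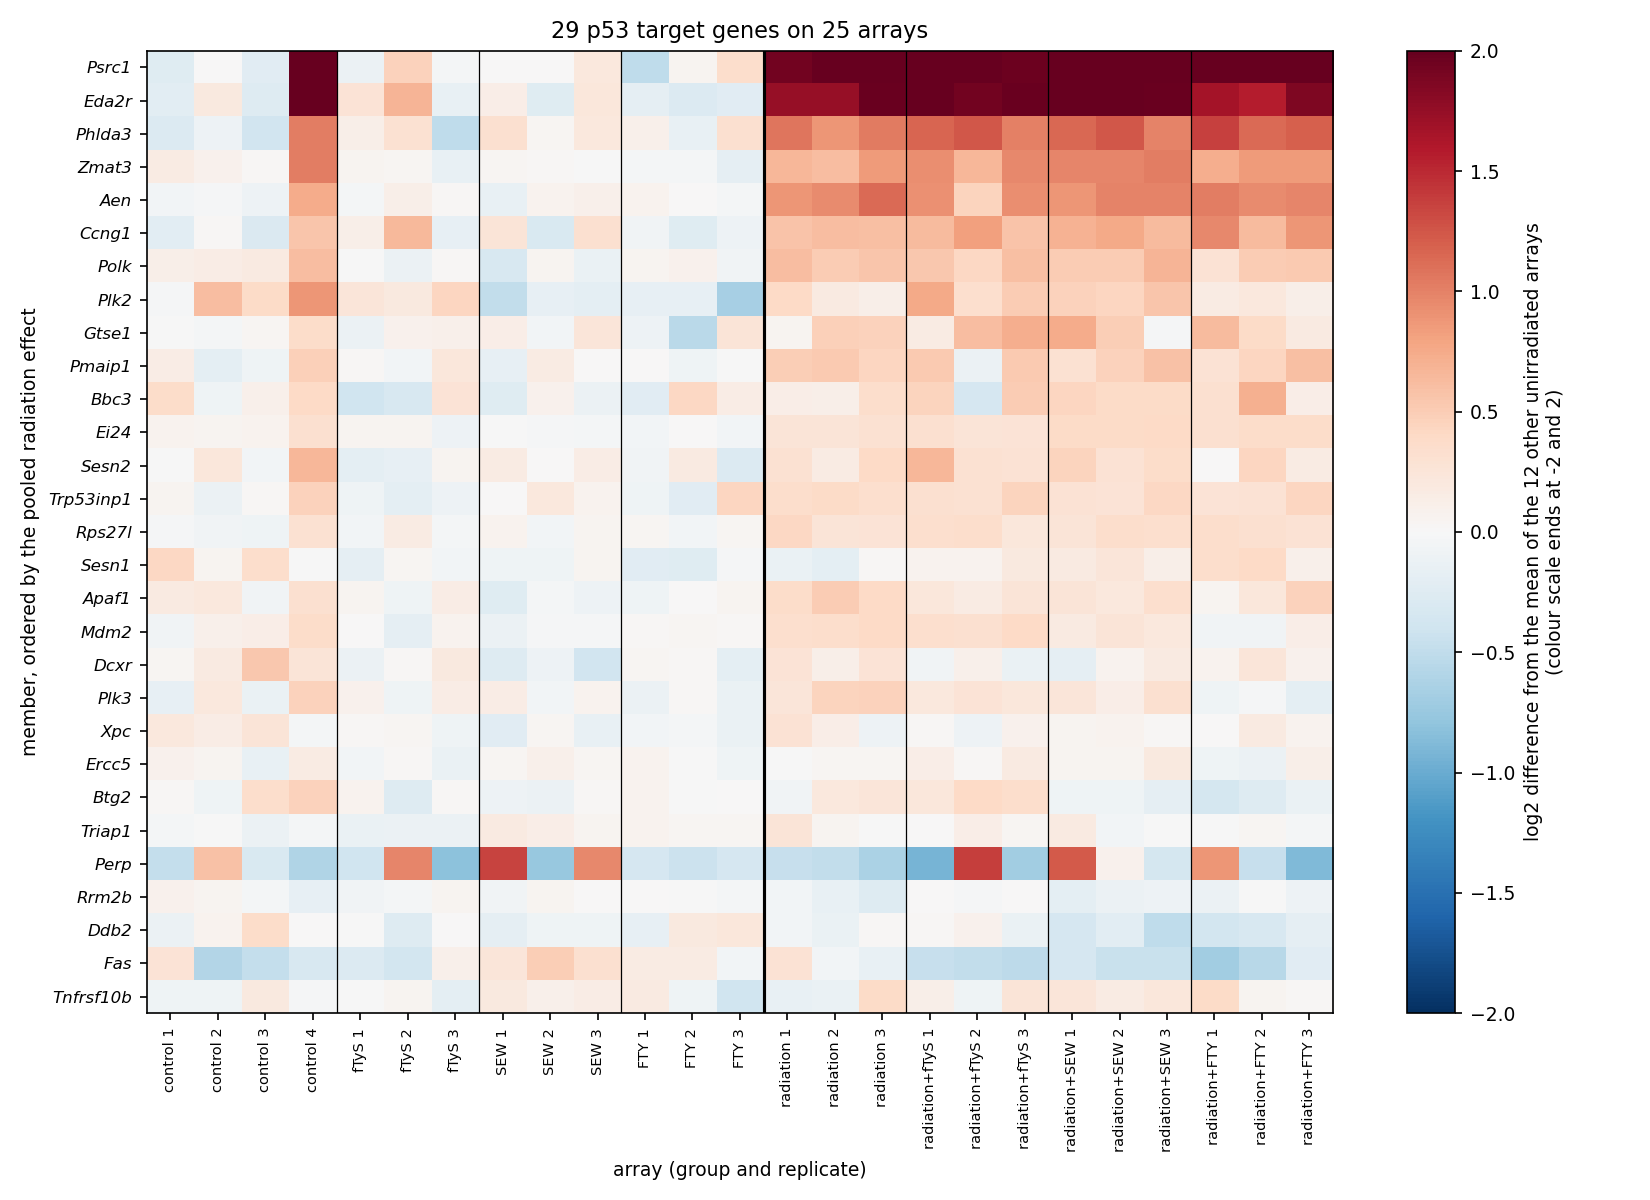
Heat map of 29 p53 target genes (vertical axis, ordered by the radiation effect pooled over the 3 compounds, with the untested Tnfrsf10b last) on 25 arrays (horizontal axis, by group, 13 unirradiated then 12 irradiated). Colour is the log2 difference from the mean of the 12 unirradiated arrays other than control replicate 4, and that array is red in Psrc1, Eda2r, Phlda3, Zmat3 and Aen like the irradiated arrays.

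Without control replicate 4, the levels of 8 members separated every irradiated array from every unirradiated one. In Psrc1, Eda2r, Phlda3, Zmat3, Aen, Polk, Ei24 and Rps27l all 12 irradiated arrays lay above all 12 other unirradiated arrays, a pattern that 46 genes or 0.356% of those tested showed. Psrc1 passed the signal filter, and had its probe set chosen, through its levels after radiation and on control replicate 4. Its place here and in the counts that follow depended on the response itself. Control replicate 4 lay at or above the lowest irradiated array in 8 of these 8 members, in 43 of the 46 genes, and at or below the highest irradiated array in 11 of the 12 genes (0.0928%) with the opposite pattern. With all 13 unirradiated arrays, 3 genes were higher in every irradiated array (0.0232%) and none of them was a member. Leaving out any other unirradiated array in its place gave 3 or 4 such genes. Markers of other cells also differed on this array: the summed signal of 8 neutrophil markers was 6118, against 1907 to 2743 on the other controls and 13763 to 25605 on the radiation arrays. This sum overlapped between irradiated and unirradiated arrays with fTyS and with SEW, and not with FTY. It was 3622 to 5137 with fTyS, 1472 to 1866 with SEW and 2038 to 3939 with FTY. With radiation added it was 3825 to 5877, 1797 to 7711 and 6008 to 16092. The sum of 12 immediate early genes was 34384 on control replicate 4 and 23085 to 29625 on the other controls. The part of these markers in the members' levels was not tested.

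The first comparison asks what 25 Gy did to these genes in mice given no compound. Radiation raised 5 of the 28 tested members against all 4 controls and lowered 0, beside 2.29% of all genes called higher and 2.11% called lower (limma, Benjamini-Hochberg adjusted p of at most 0.05). The 5 were Psrc1, Eda2r, Phlda3, Aen and Rps27l. Without control replicate 4, 14 members rose and 1 fell, beside 3.31% and 3.52% of all genes. The 14 added Ccng1, Zmat3, Pmaip1, Plk3, Polk, Trp53inp1, Apaf1, Mdm2 and Ei24, and the member that fell was Sesn1. Leaving out any of the other 6 arrays of these groups instead left 1 or 2 members called. With the replicate number of the labels as a block, 15 members were called, 14 of them higher, beside 6.7% of all genes. Number 4 exists in the control group alone, so the block also takes that array out of the contrast. All 3 radiation arrays lay above all 4 controls in 4 members, Ccng1, Aen, Apaf1 and Triap1, against 6.25% of all genes. Without control replicate 4 they lay above the 3 others in 16 members and below them in 2, against 10.0% and 14.0%. The median difference over the 28 members was 0.23 with all arrays and 0.30 without control replicate 4, against -0.01 and -0.02 over all genes.

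A second view of radiation compared neither the control nor the radiation-alone arrays, which enter it through the shared estimate of spread alone. The pooled radiation effect is the mean of 3 differences, radiation+fTyS against fTyS, radiation+SEW against SEW and radiation+FTY against FTY, with 9 irradiated and 9 unirradiated arrays. It raised 18 of the 28 members and lowered 1, Fas, beside 18.1% of all genes called higher and 8.27% called lower. In 9 members the irradiated and unirradiated arrays did not overlap, all higher after radiation, against 1.36% of all genes. The median difference over the members was 0.32 against 0.03 over all genes. Leaving out any 1 of the 25 arrays gave 18 to 20 members called.

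Taken one compound at a time, the same members led, with the limit on Psrc1 given above. Radiation+fTyS against fTyS had 8 members higher and 0 lower, beside 0.332% and 0.124% of all genes: Psrc1 (1.96 ± 0.43), Eda2r (1.75 ± 0.37), Phlda3, Zmat3 (0.87 ± 0.17), Aen, Polk, Mdm2 and Ei24. Their adjusted p ran from 0.034 to 0.05, and the count moved with nearly every array left out: it was 0 without any 1 of the 3 fTyS arrays, and 10 without control replicate 4, which is in neither group. Radiation+SEW against SEW had 12 higher and 1 lower, beside 13.8% and 3.92%; Psrc1 rose by 2.12 and Eda2r by 2.05 ± 0.37, and Fas fell. Radiation+FTY against FTY had 10 higher and 2 lower, beside 9.13% and 4.99%; Psrc1 rose by 2.27, Eda2r by 1.93 and Ccng1 by 0.96, and Fas and Ddb2 fell, Ddb2 by 0.38 (adjusted p = 0.0372). Psrc1, Eda2r, Phlda3, Zmat3, Aen, Polk and Ei24 were called higher in all 3.

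**Figure D2:**
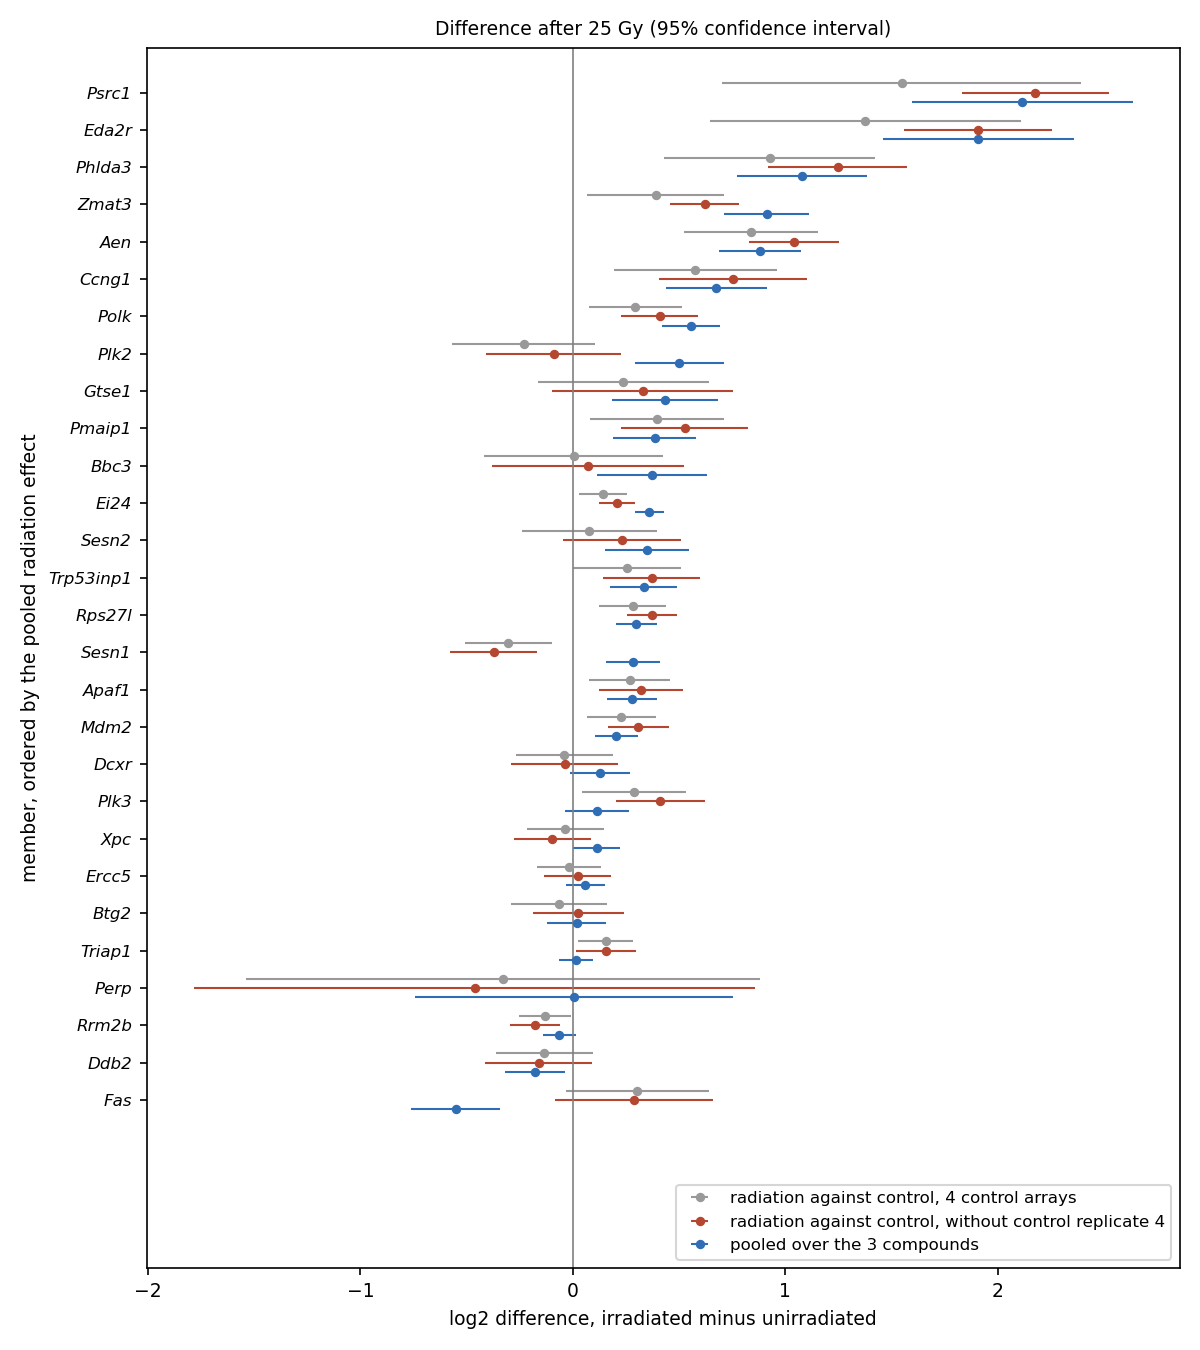
Difference after 25 Gy for the 28 tested members (vertical axis), as log2 differences (horizontal axis) with 95% confidence intervals from limma. Grey is radiation against all 4 controls, red the same without control replicate 4, and blue the pooled effect over the 3 compounds; Psrc1 and Eda2r lie farthest to the right, and Sesn1 and Fas lie on opposite sides of 0 in the red and blue estimates.

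Psrc1 (probe set 1417323_at), which codes for a microtubule-binding protein of the mitotic spindle that p53 is known to regulate, had the largest response among the probe sets read. Its level was 6.25, 6.49, 6.26 and 8.85 on control replicates 1 to 4 and 8.41, 8.52 and 8.60 on the radiation arrays. Its lowest, median and highest levels were 8.41, 8.62 and 8.81 on the 12 irradiated arrays and 5.98, 6.49 and 6.95 on the 12 unirradiated arrays other than control replicate 4. The groups were far apart but for that array, which was higher than any irradiated one. The mean over the 12 other unirradiated arrays, 6.48, lay just below the filter on dim signal (6.49), so Psrc1 was tested through its higher levels elsewhere, and its folds are those of the log2(signal + 16) scale. The difference was 1.55 ± 0.40 (SE) with all controls (2.92-fold, adjusted p = 0.0336), 2.18 ± 0.17 without control replicate 4 (4.52-fold, adjusted p = 8.42e-07) and 2.12 ± 0.25 in the pooled effect (4.33-fold, adjusted p = 1.71e-05). Both other probe sets of Psrc1 moved less. They differed by 0.34 and 0.17 in radiation against control and by 0.30 ± 0.08 and -0.11 ± 0.10 in the pooled effect. The first had a mean of 7.49 over all arrays, just under the 7.60 of the named probe set. The named probe set thus ranked as the brightest only through its levels after radiation and on control replicate 4. Its choice depended on the response itself, so the size and adjusted p given here hold for that probe set alone. Of the 8 proliferation markers tested, 0 were called in either radiation comparison.

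Eda2r (1440085_at), a receptor of the tumour necrosis factor family that binds ectodysplasin A2, followed the same order. Control levels were 6.65, 7.06, 6.60 and 8.89, and radiation levels were 8.60, 8.60 and 8.84. Its 9 arrays with a compound and no radiation ran from 6.59 to 7.54, and the 9 irradiated with a compound from 8.43 to 9.04. Radiation raised it by 1.38 ± 0.35 with all controls (adjusted p = 0.0288), by 1.91 ± 0.17 without control replicate 4 (adjusted p = 4.53e-06) and by 1.91 ± 0.22 in the pooled effect (adjusted p = 1.31e-05). Phlda3 (1449002_at), which codes for a PH-domain protein that holds back Akt, had control levels of 9.59, 9.76, 9.47 and 10.88 and radiation levels of 10.92, 10.73 and 10.90. It rose by 0.93 ± 0.24, 1.25 ± 0.16 and 1.08 ± 0.15 in the same 3 estimates, and the pooled adjusted p was 5.38e-05. The plot of 9 members by array shows control replicate 4 at or above the lowest irradiated array in each of them but Ccng1.

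**Figure D3:**
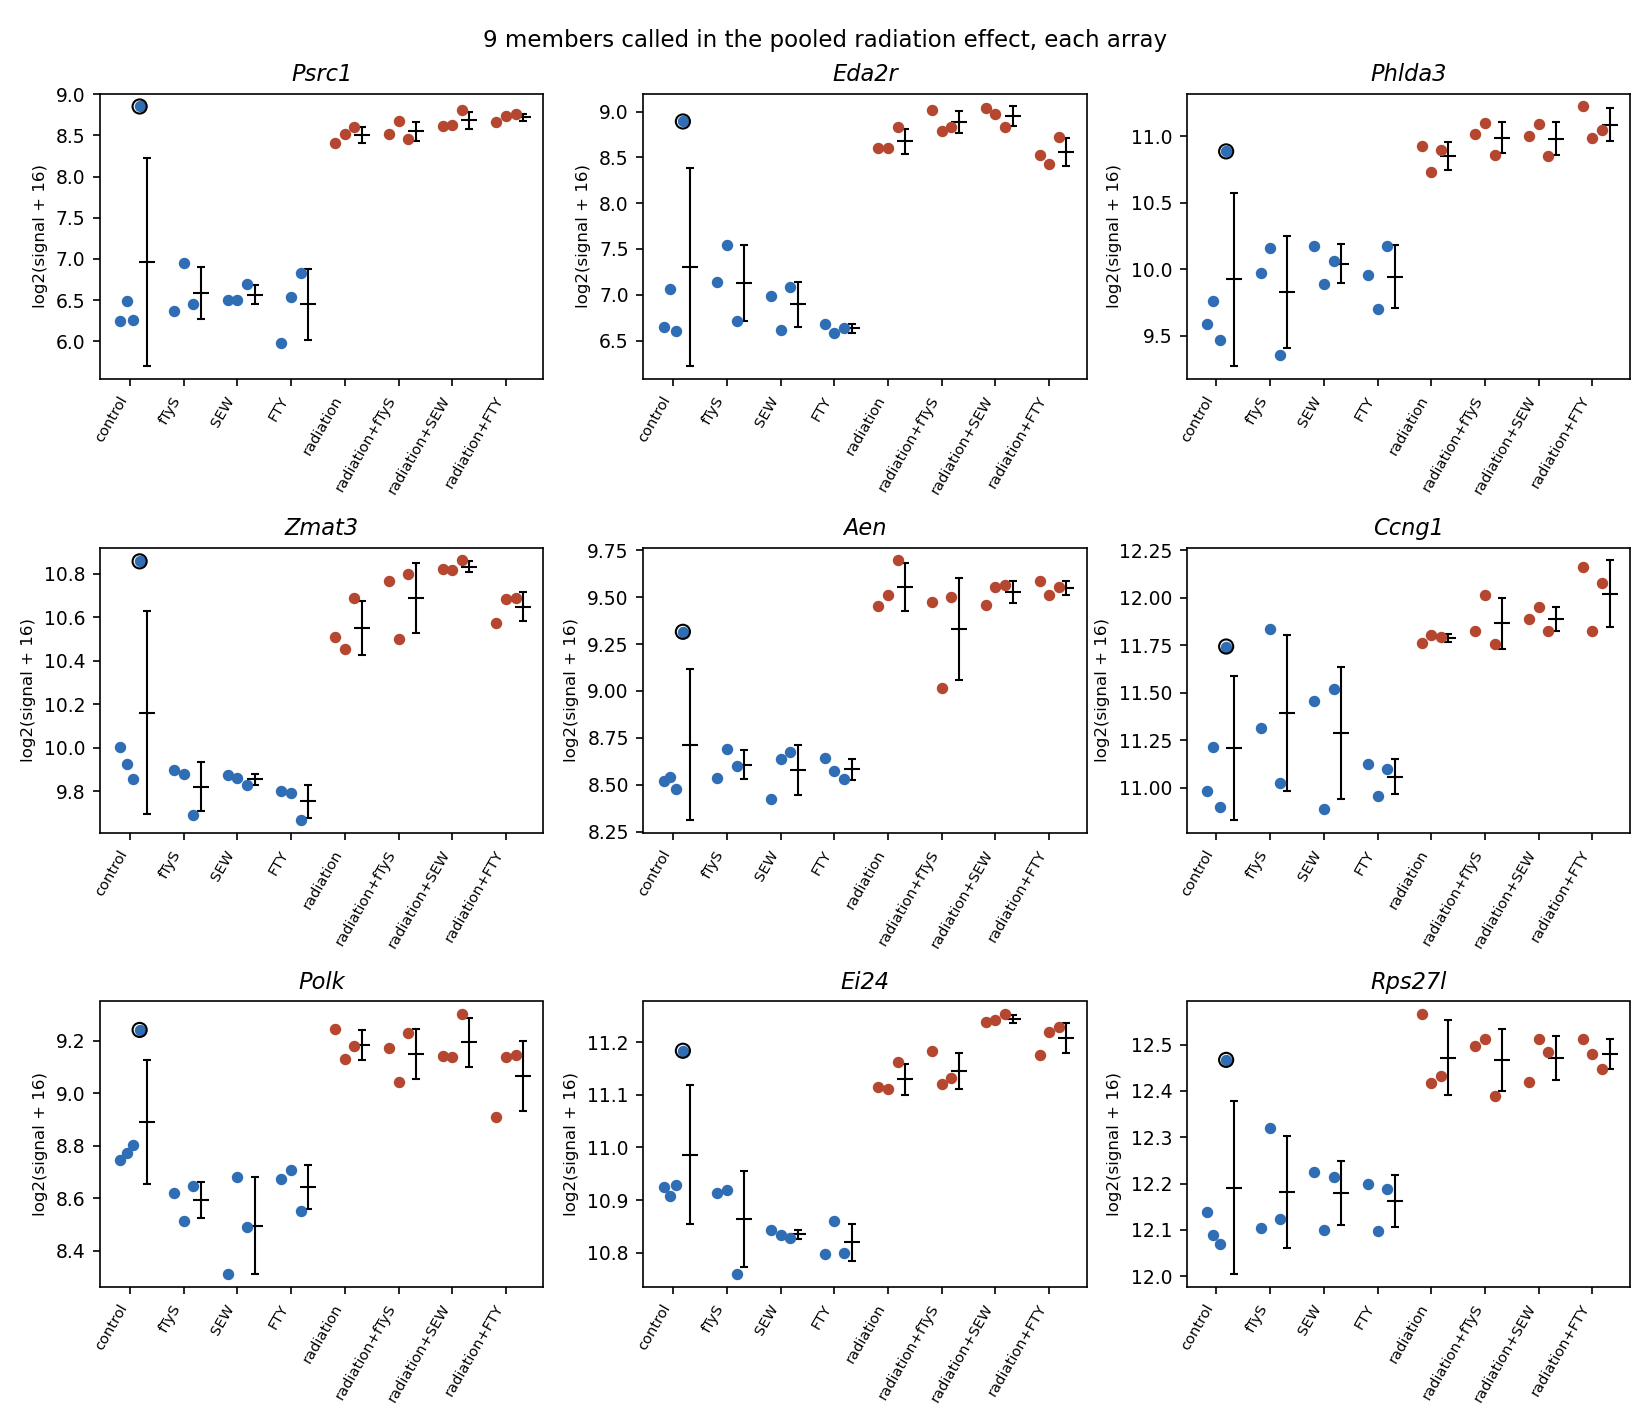
Levels of 9 members on each array (vertical axes, log2(signal + 16); horizontal axes, the 8 groups). Blue points are unirradiated, red points irradiated, the ringed point is control replicate 4, and bars give the group mean and SD; in Psrc1 the irradiated arrays lie at 8.41 to 8.81 and the other unirradiated arrays at 5.98 to 6.95.

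Among the members that act in apoptosis, Aen, Zmat3, Ei24, Pmaip1, Bbc3 and Apaf1 rose in the pooled effect, Fas fell, and Perp was not called. Aen (1423957_at), an apoptosis-enhancing nuclease, was 8.52, 8.54, 8.47 and 9.32 in the controls and 9.45, 9.51 and 9.70 after radiation. Its radiation arrays lay above all 4 controls, and it had the smallest adjusted p of any member in that comparison (0.84 ± 0.15, adjusted p = 0.00221). Its pooled difference was 0.88 ± 0.09 (adjusted p = 6.47e-06). The dimmest of its 4 probe sets differed by 0.10 ± 0.13 in the pooled effect. Zmat3 (1449353_at), a zinc-finger protein that binds RNA, was 10.00, 9.93, 9.86 and 10.86 in the controls and 10.51, 10.45 and 10.69 after radiation. It was called without control replicate 4 (0.62 ± 0.08, adjusted p = 8.89e-05) and in the pooled effect (0.91 ± 0.10), but not with all controls (0.39 ± 0.16, adjusted p = 0.189).

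Ei24 (1416555_at), a membrane protein of the endoplasmic reticulum, moved little but with little spread. Its control levels were 10.93, 10.91, 10.93 and 11.18 and its radiation levels 11.12, 11.11 and 11.16. The pooled difference of 0.36 ± 0.03 had the smallest adjusted p of any member (1.91e-06). Pmaip1 (1418203_at), the BH3-only protein Noxa, was 9.11, 8.76, 8.88 and 9.43 in the controls and 9.45, 9.48 and 9.39 after radiation, and rose by 0.39 ± 0.09 in the pooled effect. Bbc3 (1423315_at), the BH3-only protein Puma, was 8.82, 8.36, 8.56 and 8.85 in the controls and 8.59, 8.57 and 8.80 after radiation. These overlapped and differed by 0.00 ± 0.20, and the pooled rise of 0.37 ± 0.12 (adjusted p = 0.0313) lost its call without 1 of 8 arrays in turn. That call was also lost with quantile normalization, median centring, the Gapdh probe set ratio (RNA quality) as covariate, or a fit of only the arrays compared. Apaf1, the scaffold of the apoptosome, rose by 0.28 ± 0.06 in the pooled effect; its dimmer probe set gave 0.05. Radiation+fTyS replicate 2 was the lowest irradiated array in Aen (9.02), Pmaip1 (8.84) and Bbc3 (8.12).

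Perp, a membrane protein of desmosomes, did not separate the groups at all. It ran from 9.15 to 11.45 over the irradiated arrays and from 9.25 to 11.42 over the unirradiated arrays other than control replicate 4, and its pooled difference was 0.01 ± 0.36. The 7 arrays with the highest Perp, 10.66 to 11.45, were 4 unirradiated and 3 irradiated, radiation+fTyS replicate 2 among them. The same 7 arrays had the highest levels of Krt4, Krt13, Krt5 and Krt14, keratins of stratified epithelium, which were looked up after Perp's levels were seen. Krt4 was 11.97 to 12.66 on those 7 arrays and 5.87 to 9.55 on the other 18, and Krt13 was 10.75 to 12.38 and 4.66 to 7.80. The summed signal of 10 skeletal muscle markers was 36637 to 60150 on these 7 arrays, which held 6 of the 7 highest sums. With muscle and adipocyte markers as covariates the pooled effect called 19 members, as without them, and the part of these tissues in single members was not tested.

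The cell-cycle members were mixed. Ccng1 (1420827_a_at), cyclin G1, was 10.98, 11.21, 10.90 and 11.74 in the controls and 11.76, 11.81 and 11.79 after radiation, so that the radiation arrays lay just above all 4 controls. It rose by 0.75 ± 0.17 without control replicate 4 (adjusted p = 0.00873) and by 0.68 ± 0.11 in the pooled effect (adjusted p = 0.000327), and was not called with all controls (0.58 ± 0.18, adjusted p = 0.0868). Its other probe sets had pooled differences of 0.66 ± 0.12 and 0.83 ± 0.13. Gtse1, a microtubule-binding protein of G2 and S phase that holds p53 down, ran from 6.89 to 7.65 on the irradiated arrays and from 6.37 to 7.17 on the 12 other unirradiated ones, overlapping. Its pooled difference was 0.43 ± 0.12. Btg2, an antiproliferative gene, differed by 0.02 ± 0.07 in the pooled effect, with a 95% confidence interval of -0.12 to 0.16. Plk2 and Plk3, polo-like kinases of the stress response, are described with the compounds.

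Of the DNA-repair members, Polk alone was called higher. Polk (1449483_at), a translesion DNA polymerase, was 8.75, 8.77, 8.80 and 9.24 in the controls and 9.24, 9.13 and 9.18 after radiation. It rose by 0.41 ± 0.09 without control replicate 4 and by 0.56 ± 0.06 in the pooled effect (adjusted p = 1.56e-05); a dimmer probe set of Polk gave 0.13 ± 0.06. Xpc and Ddb2, which recognise damaged bases, and Ercc5, an excision nuclease, had pooled differences of 0.11 ± 0.05, -0.18 ± 0.07 and 0.06 ± 0.04, none of them called. Dimmer probe sets of Ddb2 and Ercc5 gave 0.06 ± 0.07 and 0.23 ± 0.07. Rrm2b, the p53-regulated subunit of ribonucleotide reductase, differed by -0.06 ± 0.04 on its brightest probe set. Of its 3 dimmer probe sets, 2 differed by -0.96 and -0.97 in radiation against control and by 0.03 and 0.02 in the pooled effect, and the third by 0.00 and -0.23.

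Mdm2 (1423605_a_at), the ubiquitin ligase that returns p53 to a low level, rose the least of the 18 members that rose in the pooled effect. It was 10.21, 10.38, 10.42 and 10.65 in the controls and 10.62, 10.64 and 10.67 after radiation. It rose by 0.31 ± 0.07 without control replicate 4 (adjusted p = 0.00849) and by 0.20 ± 0.05 in the pooled effect (adjusted p = 0.00414), and its dimmer probe sets gave 0.36 ± 0.08 and 0.02 ± 0.12 in the pooled effect and -0.18 and -0.03 in radiation against all controls. Rps27l (1450925_a_at), a ribosomal-protein-like gene with a close paralog, was the brightest member. Its controls were 12.14, 12.09, 12.07 and 12.47 and its radiation arrays 12.56, 12.42 and 12.43. All 3 of its probe sets gave pooled differences of 0.30 to 0.35, that of the named probe set being 0.30 ± 0.05 (adjusted p = 0.000164).

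The stress and metabolism members also rose in part. Trp53inp1, a nuclear stress protein, rose by 0.33 ± 0.08 in the pooled effect, from 11.33 to 11.99 on the unirradiated arrays with a compound to 11.82 to 11.99 on the irradiated ones. Its dimmer probe set gave 0.47 there and -0.47 in radiation against control, where the brighter one gave 0.25. Sesn2, a sestrin that restrains growth signalling, was 6.81, 7.03, 6.76 and 7.48 in the controls and 7.11, 6.97 and 7.21 after radiation. With a compound it was 6.54 to 6.99 without radiation and 6.82 to 7.48 with it, so the groups overlapped, and it rose by 0.35 ± 0.09 in the pooled effect. In radiation against control its brighter probe set gave 0.08 and its dimmer one 0.61. Dcxr, a carbonyl reductase, and Triap1, an inhibitor of apoptosis, differed by 0.13 ± 0.07 and 0.01 ± 0.04 and were not called. Sesn1 is described with the compounds, since its direction on the brightest probe set depended on them.

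Response elements for p53 close to annotated gene starts were searched to show the sequences of some of these genes. The list holds genes known as p53 targets, so more matches than in other genes is no independent result. The search took the promoter windows of RefSeq (GRCm38.p6), 250 bases before to 50 bases after each annotated start, and looked for 2 adjacent p53 half-sites of 10 bases with no spacer, each with the core CNNG and with at most 3 mismatches in the 20 bases. The site is its own reverse complement in form, so both strands were covered. Windows were available for 21 of the 29 members, and 6 held a site (28.6%) and 15 did not, against 441 of 27025 genes with a site (1.63%). With at most 1 mismatch, 3 of the 21 members and 0.0814% of all genes held one. RefSeq annotates several starts for most of these genes, and the distance given is to the start of the window that held the site. Measured from the outermost start, the Ccng1 site lies before it, and the others lie inside the gene, at 10 bases (Aen), 254 (Gtse1), 1088 (Bbc3), 1672 (Rps27l) and 76692 (Sesn1). The 6 sites follow, 5′ to 3′ on the gene's strand, with the 20 bases of the site in capitals and 5 flanking bases on each side.
Ccng1, 1 mismatch, 195 bases before a start, chr11:40755457-40755486, minus strand: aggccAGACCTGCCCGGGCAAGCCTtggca
Rps27l, 1 mismatch, 117 bases before a start, chr9:66946291-66946320, plus strand: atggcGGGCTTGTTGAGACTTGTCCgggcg
Gtse1, 1 mismatch, 1 base before a start, chr15:85859940-85859969, plus strand: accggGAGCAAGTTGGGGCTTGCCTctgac
Bbc3, 3 mismatches, 97 bases before a start, chr7:16309481-16309510, plus strand: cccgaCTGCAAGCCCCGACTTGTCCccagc
Aen, 3 mismatches, 121 bases before a start and past another, upstream one, chr7:78895932-78895961, plus strand: aagccGGGCTTGTCCGGGCAAGGAGcttcc
Sesn1, 3 mismatches, 173 bases before a start, chr10:41887261-41887290, plus strand: ccttcAAGCTTGTTTTTGCTGGCCTggtcc
Each is a match of letters and not a measured binding site. Among the members with the closest matches, Ccng1 and Rps27l rose both in the pooled effect and with radiation alone without control replicate 4, and Psrc1 and Eda2r, with the largest differences, had no match in their windows.

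Other genes of the pathway, from lists of known targets and regulators, were read beside the members. Of 27 tested genes in a list of further p53 targets, 3 rose with radiation against all controls, 5 without control replicate 4, and 9 rose and 1 fell in the pooled effect, beside 2.29%, 3.31%, and 18.1% and 8.27% of all genes. The largest pooled rise was in Lif, a cytokine of the interleukin-6 family (1.06 ± 0.14, adjusted p = 4.39e-05). It was followed by Cdkn1a, the cell-cycle inhibitor p21 (0.68 ± 0.22, adjusted p = 0.0287), Ephx1, an epoxide hydrolase (0.57 ± 0.06), Ccnd1, cyclin D1 (0.46 ± 0.05), Tigar, a regulator of glycolysis (0.46 ± 0.08), and Sulf2, a sulfatase (0.45 ± 0.09). Cdkn1a was 11.34, 9.80, 9.72 and 12.02 in the controls and 11.91, 11.92 and 12.08 after radiation. It was 10.68 to 11.76 with a compound alone and 11.61 to 12.15 with a compound and radiation, so control replicates 1 and 4 lay near or within the other groups. It rose by 1.68 ± 0.28 without control replicate 4 (adjusted p = 0.000805) and missed the threshold with it (1.25 ± 0.36, adjusted p = 0.0538). Bid, a BH3-only protein, rose with radiation alone (0.61 ± 0.11, adjusted p = 0.00324) and differed by -0.10 ± 0.07 in the pooled effect. Of 27 tested regulators of p53 and DNA-damage kinases, 1 rose and 6 fell in the pooled effect, beside the same 18.1% and 8.27%. Among those that fell were Mdm4, an inhibitor of p53, by 0.21 and Nbn, of the complex that senses DNA breaks, by 0.30. They were not chosen by size, and the other regulators called, the 1 that rose among them, are not named here. These names do not stand for the list. Nbn was 8.53, 8.47, 8.18 and 8.25 in the controls and 8.81, 8.32 and 8.43 after radiation alone. With a compound it was 8.58 to 8.81 without radiation and 8.24 to 8.74 with it.

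The next comparisons ask whether a compound changed these genes in irradiated lungs. Against radiation alone, radiation+fTyS and radiation+SEW each had 0 of 28 members called, beside 0.858% and 2.48% of all genes; 4 members in each had an unadjusted p under 0.05. Radiation+FTY had 1 member higher and 2 lower, beside 1.94% and 1.08% of all genes. The members with the largest radiation response were not called with any compound, and the intervals were wide. Psrc1 differed from radiation alone by 0.04 (95% confidence interval -0.86 to 0.94) with fTyS, 0.17 (-0.73 to 1.07) with SEW and 0.21 (-0.69 to 1.11) with FTY. Eda2r differed by 0.21 (-0.58 to 0.99), 0.27 (-0.51 to 1.05) and -0.12 (-0.90 to 0.67). Rps27l, with narrower intervals, differed by -0.01 (-0.17 to 0.16), 0.00 (-0.17 to 0.17) and 0.01 (-0.16 to 0.18). The radiation arrays, which these comparisons share, also had neutrophil marker sums of 13763 to 25605, against 1797 to 16092 with a compound.

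**Figure D4:**
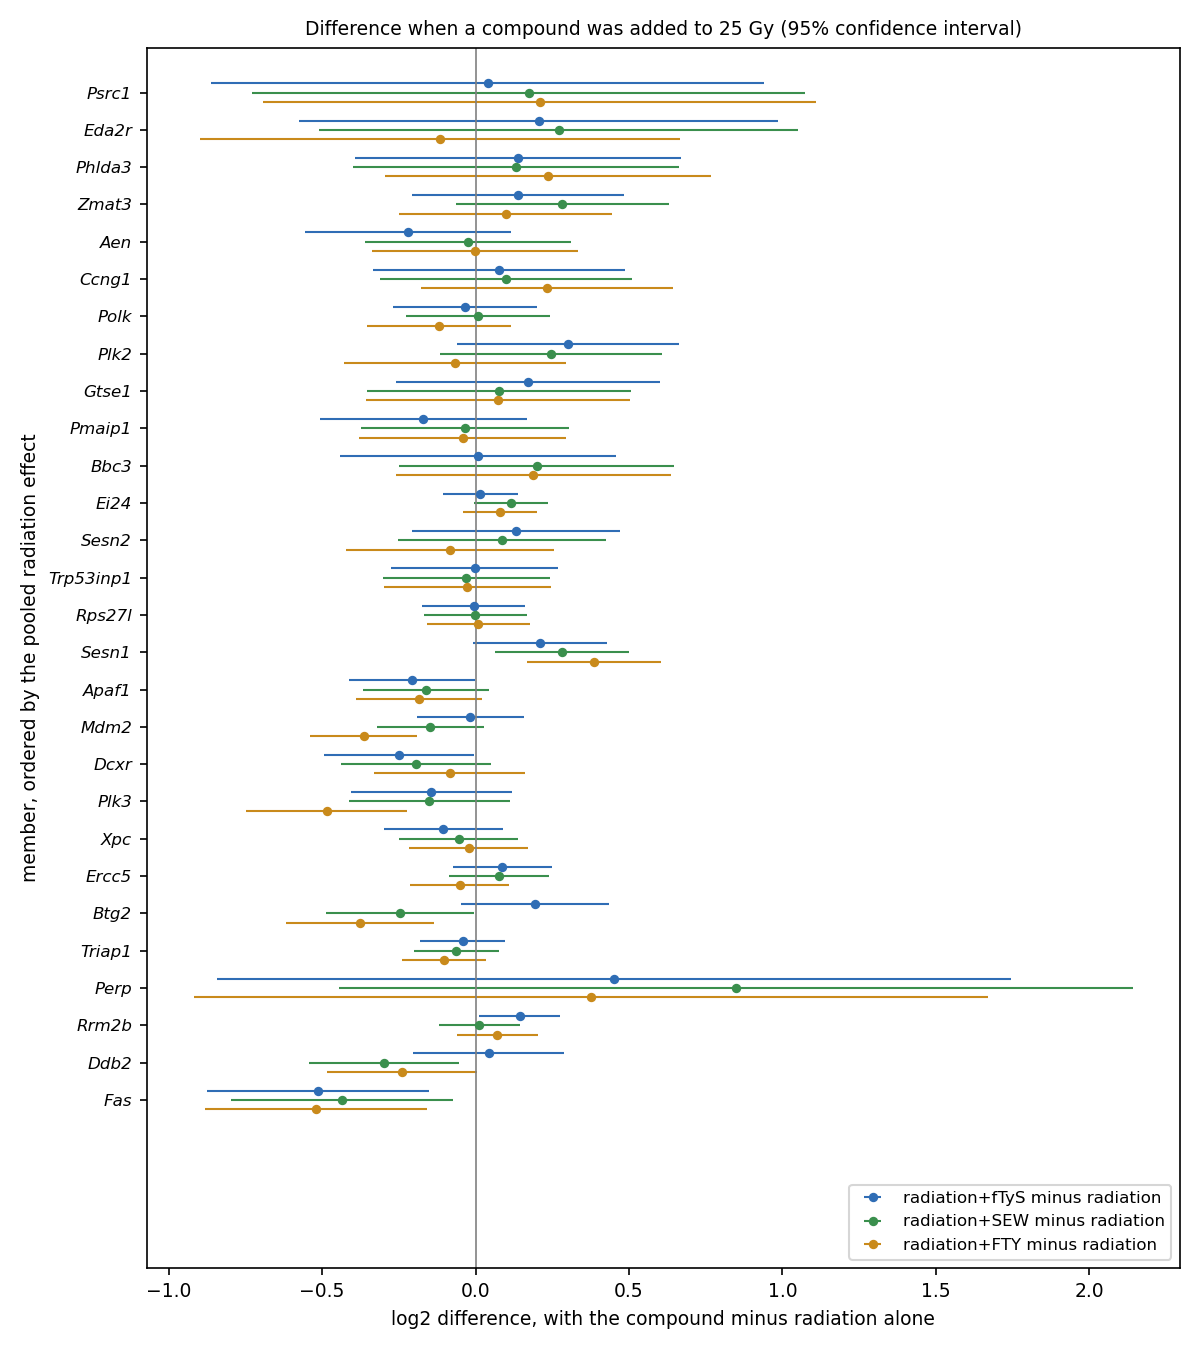
Difference between irradiated mice with a compound and radiation alone for the 28 tested members (vertical axis), as log2 differences (horizontal axis) with 95% confidence intervals from limma. Blue is fTyS, green SEW and orange FTY, and most intervals include 0, while Mdm2 and Plk3 lie below it and Sesn1 above it with FTY.

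The members called with radiation+FTY were Mdm2, Plk3 and Sesn1. Mdm2 was 10.21, 10.21 and 10.42 there, against 10.62, 10.64 and 10.67 with radiation alone, and the arrays did not overlap. On the probe set read, it was 0.36 ± 0.08 lower (-0.36, adjusted p = 0.0276), at the level of FTY without radiation (10.30, 10.32 and 10.31). Over all settings tried, the Mdm2 difference ran from -0.43 to -0.17. Plk3, a polo-like kinase, was 7.28, 7.34 and 7.17 against 7.61, 7.81 and 7.83 (-0.48 ± 0.13, adjusted p = 0.0418). Sesn1 was 10.85, 10.89 and 10.60 against 10.36, 10.30 and 10.53 (0.39 ± 0.10, adjusted p = 0.0496). All 3 calls were lost without any 1 of the 3 radiation arrays or without radiation+FTY replicate 1 or 2. With the probe sets of each gene averaged, 0 members were called, and likewise 0 with skeletal muscle and adipocyte markers as covariates. The immediate early sum was 20056 to 22055 in radiation+FTY and 22612 to 32371 with radiation alone, and its part in these differences was not tested.

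Without radiation, fTyS changed 0 of the 28 members against control (5 with an unadjusted p under 0.05), beside 0.178% of all genes. SEW raised 1 member and lowered 4, beside 3.77% and 10.8% of all genes, and FTY raised 0 and lowered 2, beside 0.479% and 2.25%. The counts for SEW lie near the shares over all genes and mark nothing particular to the members. Plk2 fell with both SEW and FTY. It was 10.05, 10.70, 10.47 and 10.97 in the controls, 9.60, 9.91 and 9.89 with SEW (-0.75 ± 0.16, adjusted p = 0.006) and 9.92, 9.92 and 9.42 with FTY (-0.79 ± 0.16, adjusted p = 0.0162). Every SEW and FTY array lay below every control, and both falls were also called without control replicate 4 (-0.61 ± 0.15 and -0.65 ± 0.15). With SEW, Dcxr fell by 0.50, Polk by 0.40 and Apaf1 by 0.29, and Fas, a death receptor, rose by 0.63 ± 0.16 (adjusted p = 0.0154). The log2 ratio of the Gapdh 3′ to 5′ probe sets, a sign of RNA quality, was -0.17, 0.06 and -0.12 on the SEW arrays and 0.35, 0.08, 0.36 and 0.10 on the controls. With that ratio as a covariate these 4 calls were lost, with adjusted p from 0.0763 for Fas to 0.142 for Polk, and both FTY calls against control were lost too (0.0851 for Plk2 and 0.273 for Sesn1). Without control replicate 4 the counts were 0 for fTyS (beside 0.526%), 1 higher and 5 lower for SEW (3.08% and 10.3%) and 0 higher and 2 lower for FTY (0.363% and 2.33%). With SEW, Apaf1 was then no longer called, and Xpc and Sesn1 were. Sesn1 fell by 0.37 ± 0.10 with FTY (adjusted p = 0.0463). Without SEW replicate 1 or 3 the count for SEW was 3, and without control replicate 3 or FTY replicate 3 that for FTY was 0. Of 11 tested immediate early genes, 6 were lower with SEW and 2 with FTY.

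**Figure D5:**
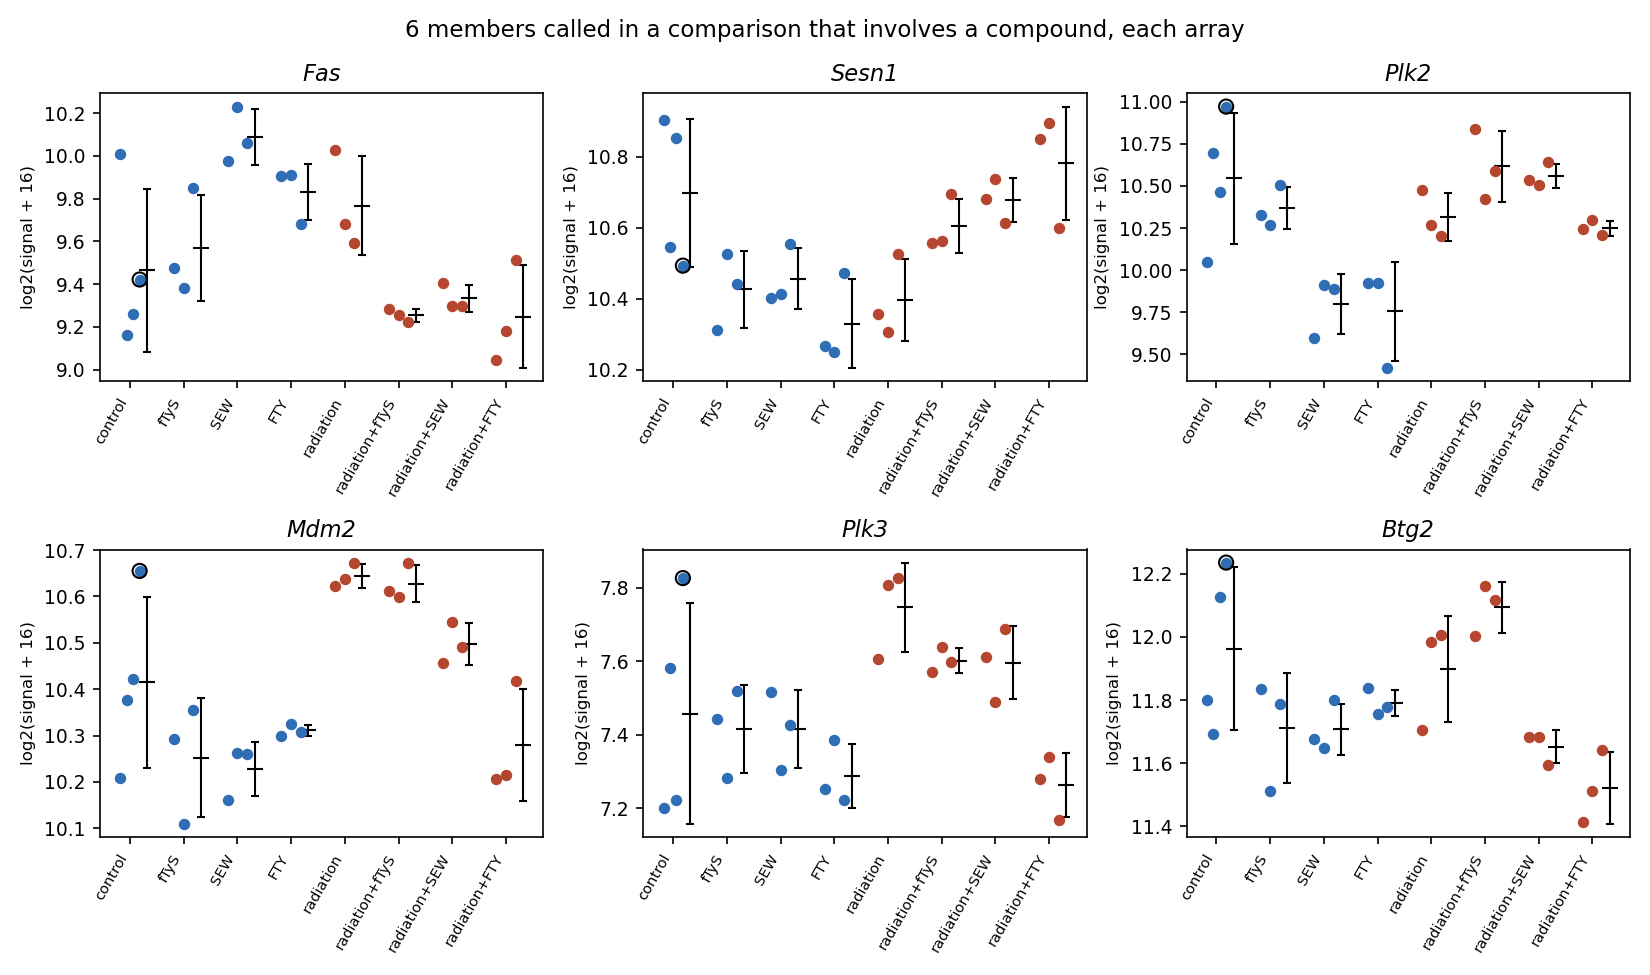
Levels of 6 members called in a comparison that involves a compound, on each array (vertical axes, log2(signal + 16); horizontal axes, the 8 groups). Blue points are unirradiated, red points irradiated, the ringed point is control replicate 4, and bars give the group mean and SD; Fas is high with SEW (9.98 to 10.23) and low with radiation+SEW (9.30 to 9.40).

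The interaction asks whether radiation changed a member by a different amount when a compound was given. It was called for 0 members with fTyS, 4 with SEW and 2 with FTY, beside 1.35%, 13.9% and 6.84% of all genes. The counts for SEW and FTY are much like the shares over all genes and mark nothing particular to the members. Without SEW replicate 1 the count for SEW was 2, and for FTY the counts without 1 array ran from 1 to 4. Without control replicate 4 the counts were 1, 5 and 3, beside 1.66%, 13.7% and 6.41%. In Fas the control arrays were 10.01, 9.16, 9.26 and 9.42, the radiation arrays 10.03, 9.68 and 9.59, the SEW arrays 9.98, 10.23 and 10.06 and the radiation+SEW arrays 9.40, 9.30 and 9.30. Radiation alone gave a difference of 0.30 ± 0.16, not called, and radiation+SEW against SEW a fall of 0.76 (adjusted p = 0.00607). The interaction was -1.06 ± 0.24 with SEW (adjusted p = 0.00733) and -0.89 ± 0.24 with FTY (adjusted p = 0.0312). With the replicate block the value for FTY was -0.87 and missed the threshold (adjusted p = 0.0529), as it did with the Gapdh ratio and with a fit of those groups alone. With fTyS the levels were 9.47, 9.38 and 9.85 without radiation and 9.29, 9.25 and 9.22 with it, and the interaction of -0.62 ± 0.24 was not called (adjusted p = 0.202). Fas was thus the 1 member that fell in the pooled effect, by 0.55 (adjusted p = 0.000597), without a fall after radiation alone. Neutrophil markers had interactions in the same direction, with 3 of 7 called lower for SEW and 1 of 7 for FTY, and their part in Fas was not tested.

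Sesn1 (1438931_s_at), a sestrin that limits growth signalling after stress, turned direction with the compounds on its brightest probe set alone. Controls were 10.90, 10.55, 10.85 and 10.49, and the radiation arrays were 10.36, 10.30 and 10.53. Compounds without radiation gave 10.25 to 10.55 and with radiation 10.56 to 10.89, with no overlap. Radiation alone gave -0.30 ± 0.10 (adjusted p = 0.0907), which was called without control replicate 4 (-0.37 ± 0.10, adjusted p = 0.0253), and the pooled effect was 0.28 ± 0.06 (adjusted p = 0.00195). The interaction was 0.52 ± 0.14 with SEW (adjusted p = 0.021) and 0.76 ± 0.14 with FTY (adjusted p = 0.007). Its probe set is of a kind that can match more than 1 gene. Other probe sets of Sesn1, at means of 10.28, 9.60 and 6.79, gave -0.22, -0.26 and 0.12 in radiation against control. Their pooled differences were 0.04, 0.02 and -0.06. With probe sets averaged, neither the SEW nor the FTY interaction of Sesn1 was called. Plk2 had an interaction of 0.99 ± 0.24 with SEW (adjusted p = 0.0106). It was 9.60 to 9.91 with SEW alone and 10.51 to 10.64 with radiation+SEW. Radiation alone gave 10.47, 10.27 and 10.20, which differed from control by -0.23 and was not called. The pooled rise of 0.50 went from 9.42 to 10.51 with a compound alone to 10.21 to 10.84 with radiation. The controls ran from 10.05 to 10.97, control replicate 4 being the highest. The dimmer probe set of Plk2, at a mean of 4.59 and so below the filter on dim signal, gave -0.09 in the pooled effect. Ei24 had an interaction of 0.27 ± 0.08 with SEW (adjusted p = 0.0306), with radiation+SEW at 11.24, 11.24 and 11.25. Without control replicate 4, Zmat3 (0.36 ± 0.11, SEW), Sesn1 (0.55 ± 0.14, fTyS) and Mdm2 (-0.34 ± 0.10, FTY) were also called. Over all settings tried, the Mdm2 interaction with FTY ran from -0.34 to -0.02 and was called in 2.

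The compounds were given at 1 dose and schedule, so they were compared directly in 6 pairs, 3 with and 3 without radiation. Members were called in 1 pair, radiation+fTyS against radiation+FTY, with 2 higher and 0 lower, beside 1.84% and 2.11% of all genes. Btg2 was 12.00, 12.16 and 12.12 with radiation+fTyS and 11.41, 11.51 and 11.64 with radiation+FTY (0.57 ± 0.12, adjusted p = 0.0162). Mdm2 was 10.61, 10.60 and 10.67 against 10.21, 10.21 and 10.42 (0.35 ± 0.08, adjusted p = 0.0294). In neither gene did the 2 groups overlap. Both calls were lost without radiation+fTyS replicate 1, radiation+FTY replicate 1 or radiation+FTY replicate 2, and Btg2 but not Mdm2 was called without radiation+fTyS replicate 3. With probe sets averaged, Mdm2 was not called. Of 11 tested immediate early genes, 4 were also higher with radiation+fTyS. These compounds differ in the phosphonate and in the need of FTY720 for phosphorylation. In that pair Psrc1 differed by -0.17 (95% confidence interval -1.07 to 0.73), Eda2r by 0.32 (-0.46 to 1.10) and Phlda3 by -0.10 (-0.63 to 0.43). In the other 5 pairs 0 members were called (limma), with 0 to 4 members at an unadjusted p under 0.05, and in 4 of those 5 pairs 0 of the 12937 genes were (0.0%). In fTyS against SEW 1.55% of all genes were called.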

How the data were processed

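Total lung RNA (6 µg) was labelled with biotin and hybridised to Affymetrix mouse arrays, per the labels' protocols. The authors deposited a table of linear-scale intensity values for each probe set on each array; the submitters' processing notes name GCOS, the Affymetrix operating software, and the summary method and scaling are not given in the sources used here. Of 45101 probe sets, 64 controls were left out; GEO's platform annotation gave 1 symbol to 34945, several to 932 and none to 9160. Values ran from 0.53 to 19112. They became log2(signal + 16); genes at or below the 40th percentile of probe set means (6.49) were not tested.

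A single linear model of the 8 groups, with 17 degrees of freedom left, was fitted with limma 3.58.1 (R 4.3.3, eBayes with a trend) and gave 20 two-sided comparisons. Benjamini-Hochberg adjustment ran over 12937 genes per comparison; called means an adjusted p at or under 0.05. SEs are limma's. Each array is 1 mouse. Same-numbered arrays deviated together in all 3 pairs (correlation over 0.1) in 5 of the 16 pairwise comparisons, and 7 of 25 arrays correlated best with their own number, so the number was tried as a block.

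The members, lists and tests were chosen with earlier results of these data known. Array values or ranges are given for Mdm2 and for the 16 members with the largest pooled difference among those called. Sesn1, Plk3, Btg2, Perp, Nbn and the keratins were added after their values were seen. Other probe sets are given where their difference has the opposite sign or is under 0.5 of the size, and for Ccng1, Ercc5, Rps27l, Sesn1 and Sesn2. The dimmest given for Plk2 (mean 4.59), Mdm2 (5.22), Ercc5 (5.31), Psrc1 (5.47), Aen (6.17) and Trp53inp1 (6.32) lay below the filter on dim signal. Their differences can show neither agreement nor disagreement.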

Additional observations from a re-analysis of the deposited data

Results flagged for a closer look

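In 5 members the control array labelled replicate 4 was far above the other 3 controls, with a gap over the critical value of Dixon's test: Aen at 9.32, Zmat3 at 10.86, Psrc1 at 8.85, Ei24 at 11.18 and Polk at 9.24. For a single gene the test flags about 1 in 20 groups by chance. It was run on the members alone, so no share over all genes stands beside the 5 flags. All 5 are on the same array and are not independent of each other.

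In 3 members with SEW and in 2 with FTY, radiation changed the level by an amount that differed from its change without a compound by 0.5 or more on the log2 scale, as tested by the interaction term. Fas had -1.06 with SEW and -0.89 with FTY, Sesn1 had 0.52 and 0.76, and Plk2 had 0.99 with SEW. Both Sesn1 calls were lost with probe sets averaged. The Fas call with FTY was lost with the replicate block, the Gapdh ratio or a fit of those groups alone. Ei24 had a smaller interaction, 0.27 with SEW, whose call was lost with quantile normalization, median centring, the Gapdh ratio or a fit of those groups alone. The 4 interactions with SEW and 2 with FTY among 28 members stand beside 13.9% and 6.84% of all genes, shares much like the members' own. These interactions share the control and radiation arrays.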

How the results depend on the processing

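The pooled radiation effect called 18 to 20 members when any array was left out and stayed within 1.5 times of 19 under the other settings tried. Radiation against control called 15 members with array weights, 15 with the replicate block, 1 with the Gapdh probe set ratio (RNA quality) as covariate, 0 when fitted on only the arrays compared, 16 with muscle and adipocyte covariates and without control replicate 4, a setting chosen after seeing the data. Of all genes, 8.8% were called there with array weights, 6.7% with the replicate block and 0.464% with only the arrays compared. Leaving out each array gave 1 to 15 members. Radiation+fTyS against fTyS called 1 with quantile normalization, 1 with median centring, 3 with no filter, 2 with probe sets averaged, 3 with eBayes without trend, 21 with array weights, 3 with the covariates, 1 with only the arrays compared, and 0 to 10 without each array. Radiation+SEW against SEW and radiation+FTY against FTY gave 9 to 14 without each array.

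Against radiation, fTyS called 1 with probe sets averaged and 5 with array weights; SEW called 2 with array weights and 1 with the added setting; FTY called 1 with no filter, 0 with probe sets averaged, 0 with the covariates, 0 with only the arrays compared, and 0 to 4 without each array. Against control, fTyS called 4 with array weights. SEW called 3 with probe sets averaged, 9 with array weights, 1 with the Gapdh ratio, 3 with the covariates, 0 with only the arrays compared, 3 with the added setting and 3 to 7 without each array. FTY called 1 with quantile normalization, median centring, no filter, eBayes without trend or the added setting, 0 with probe sets averaged, the Gapdh ratio, the covariates or only the arrays compared, and 0 to 2 without each array.

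Interactions with fTyS, SEW and FTY numbered 5, 8 and 4 with array weights, and those with SEW and FTY 2 and 1 with the Gapdh ratio. With the added setting there were 1 for fTyS and 1 for FTY, and with only the arrays compared 1 for FTY. Without each array they ran from 0 to 1, 2 to 5 and 1 to 4. Radiation+fTyS against radiation+FTY gave 1 with probe sets averaged, 4 with array weights, 0 with only the arrays compared and 0 to 2 without each array. Array weights called 3 for fTyS against FTY, 1 for radiation+fTyS against radiation+SEW, 8 for fTyS against SEW and 1 for FTY against SEW. The covariates, with and without control replicate 4, called 1 for fTyS against SEW, and it gave 0 to 2 without each array. The remaining comparisons called 0 without any array. Array weights also raised the share of all genes called, to 34.2% for SEW against control, 34.6% for fTyS against SEW, 15.1% for fTyS against control and 28.8% for radiation+fTyS against fTyS. The replicate block moved no count but that of radiation against control by over 1.5 times; with it Sesn1 and Xpc gained and Apaf1 lost a call in SEW against control, and Zmat3 (SEW) and Mdm2 (FTY) gained and Fas (FTY) lost one among the interactions. The causes were not tested.

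Over 90 member results and 3501 recomputed values, 3015 kept direction and side of the threshold, 424 lost their call, 61 gained one and 1 reversed: Trp53inp1 in radiation against control was -0.11 with probe sets averaged. No probe-level files were used, so background correction and summary could not be varied.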
